A study of Mus musculus with 12 samples.

Results

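The genes described here encode 33 plasma proteins of blood clotting and of complement, the protein cascade of innate immunity that marks and lyses microbes. They fall into 13 clotting factors, 8 anticoagulants and fibrinolysis proteins, and 12 complement components. They were taken from the deposited table by a list of gene symbols with no threshold on measured values. Each of the 33 symbols matched 1 of its 56748 genes. All 33 passed the filter on low counts, which left 14003 genes.

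Bulk poly(A) RNA was sequenced from livers of 16-week-old male and female mice of a pair of 129 lines, which were co-housed on normal chow. The wild type groups were 129S1/SvImJ. The knockout groups were 129/Sv-Cyp2e1tm1Gonz/J, which carry a targeted allele of Cyp2e1, a cytochrome P450 that oxidises ethanol and other small molecules. The 4 groups (wild type and knockout females, wild type and knockout males) had 3 biological replicates each, and none received a further treatment per the labels. Knockout and wild type are separate lines, so an effect of the Cyp2e1 allele and a difference between the lines cannot be told apart. Cyp2e1 stood at 6213 to 7076 counts per 1000000 counts of a library (CPM) in wild type females against 230.2 to 323 in knockout females, and at 10374 to 11480 against 318 to 403 in males, so the level of Cyp2e1 matched the genotype on all 12 labels. Total counts ran from 15167730 to 25082532 per library, and the lowest count of a member in any library was 26 (Cfb). A summed level of 83729 to 125257 CPM over 11 hepatocyte markers, among them Alb, marked all 12 libraries as liver. Within each genotype this sum was higher in females. It was 95548.5 to 125257 CPM in wild type and 110687 to 114529 in knockout females, against 83729 to 93291 and 84014 to 98249 in the matching males. Alb alone had 74397 ± 13858 CPM in wild type females and 43452 ± 6139 in wild type males. In bulk tissue, fewer cells of a type and less RNA per cell cannot be told apart.

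The liver makes most circulating clotting factors and complement proteins, and hepatocytes secrete them into the blood. Clotting runs through a chain of proteases that ends in thrombin, which turns fibrinogen into fibrin. Antithrombin, protein C and their relatives hold the chain back, and plasmin dissolves the clot. Complement starts from antibody, from sugars bound by mannose-binding lectins, or by slow self-activation, and all routes meet at C3. Its last step joins C5, C6, C7, C8 and C9 into the membrane attack complex, a pore that lyses the target cell.

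Levels of the 33 genes spread over a range of 3 orders of magnitude. Per kilobase of the gene length that the table lists, and averaged over all 12 libraries, the most abundant were C3 at 1171 CPM per kilobase and the fibrinogen chain Fgg at 1154, ranks 51 and 52 of 14003 genes. Fga (816), the kininogen gene Kng1 (803) and Fgb (722) came next. Prothrombin, F2, stood at 522 CPM per kilobase, plasminogen, Plg, at 484, and histidine-rich glycoprotein, Hrg, at 465. At the low end were Masp1 (13.8) and protein S, Pros1 (10.0), and last came complement factor B, Cfb, at 1.17 CPM per kilobase. Cfb lies inside the annotated span of Gm20547, a protein-coding gene on the same strand listed at 0 counts in all libraries. The treatment of reads shared by overlapping genes, not given in the sources used here, leaves the level of Cfb uncertain.

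The 4 largest differences between the sexes among the members in wild type mice were those of 4 genes of the membrane attack complex, all higher in males. C6 was 38.6-fold higher in male than in female wild type livers and 29.9-fold higher in male than in female knockout livers by the fitted fold change. C8a and C8b, which encode the alpha and beta chains of C8, and C9, which forms most of the pore, were 3.74- to 5.47-fold higher in wild type males. Mbl2, a mannose-binding lectin, was lower in males of both genotypes, and C3 was lower in males among knockout mice. The comparison asked which members differ between the sexes within a genotype. In wild type mice 5 of 33 members were called (4 higher and 1 lower in males), where 4.49% of all genes tested were called (2.1% higher and 2.39% lower). In knockout mice 6 of 33 were called (4 higher and 2 lower), where 5.4% of all genes were (2.95% higher and 2.45% lower). With the length trend of each library removed, 4 were higher and 4 lower in knockout males, where 396 and 446 of all 14003 genes were. The median log2 fold change over the 33 members was 0.08 in wild type and -0.13 in knockout mice, against -0.0054 and -0.036 over all genes. The calls of the main fit were in complement alone among the 3 role groups. In either genotype 0 of 13 clotting factors and 0 of 8 anticoagulants and fibrinolysis genes were called by edgeR in that fit. At an unadjusted p under 0.05 those groups had 5 and 1 genes in wild type and 1 and 1 in knockout mice, where 22% and 22.5% of all genes had one.

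C6 (ENSMUSG00000022181, chromosome 15, 4756657 to 4844449, mm39, protein-coding) had 7.61, 7.52 and 6.37 CPM in wild type females and 10.3, 7.92 and 7.70 CPM in knockout females. In wild type males it had 261, 303 and 267 CPM, and in knockout males 259.9, 212 and 302 CPM. The lowest male library was thus above the highest female library by more than an order of magnitude. The log2 fold change, male over female, was 5.27 ± 0.22, adjusted p = 6.92e-09 in wild type mice and 4.90 ± 0.21, adjusted p = 1.22e-08 in knockout mice (edgeR quasi-likelihood test, Benjamini-Hochberg adjustment over 14003 genes).

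C8a (ENSMUSG00000035031, chromosome 4, 104672876 to 104733595) and C8b (ENSMUSG00000029656, 104623514 to 104661745) are neighbours on chromosome 4 with 11130 bases between them. C8a had 119, 90.2 and 113 CPM in wild type and 192, 207 and 139.8 in knockout females, against 565, 701 and 497 in wild type and 715, 595 and 741 in knockout males. C8b had 182, 181 and 161 CPM in wild type and 145, 129 and 112 in knockout females, against 564, 572 and 819.9 in wild type and 558, 759.8 and 585 in knockout males. No male library overlapped a female library in either gene. The differences between the sexes were 2.45 ± 0.21, adjusted p = 7.10e-06 in wild type and 1.93 ± 0.21, adjusted p = 6.88e-05 in knockout mice for C8a. For C8b they were 1.90 ± 0.20, adjusted p = 5.07e-05 and 2.30 ± 0.20, adjusted p = 1.11e-05.

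C9 (ENSMUSG00000022149, chromosome 15, 6474808 to 6528232) lies on the chromosome of C6, with 1630358 bases between the genes. It had 129.8, 197 and 131 CPM in wild type females and 152, 106 and 123 in knockout females, against 628, 684 and 645 and 603, 599.6 and 569 in the matching males. Again the sexes did not overlap, and the log2 fold changes were 2.10 ± 0.20, adjusted p = 2.03e-05 and 2.22 ± 0.20, adjusted p = 1.49e-05. Summed over C6, C8a, C8b and C9, the level was 441 ± 32.1 CPM in wild type and 443 ± 57.9 in knockout females, and 2169 ± 132 in wild type and 2166 ± 30.5 in knockout males (SD, n = 3). These 8 calls all held whichever of the 12 libraries was dropped and under the 7 other settings tried, with log2 fold changes of at least 1.71 on dropping a library.

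**Figure D1:**
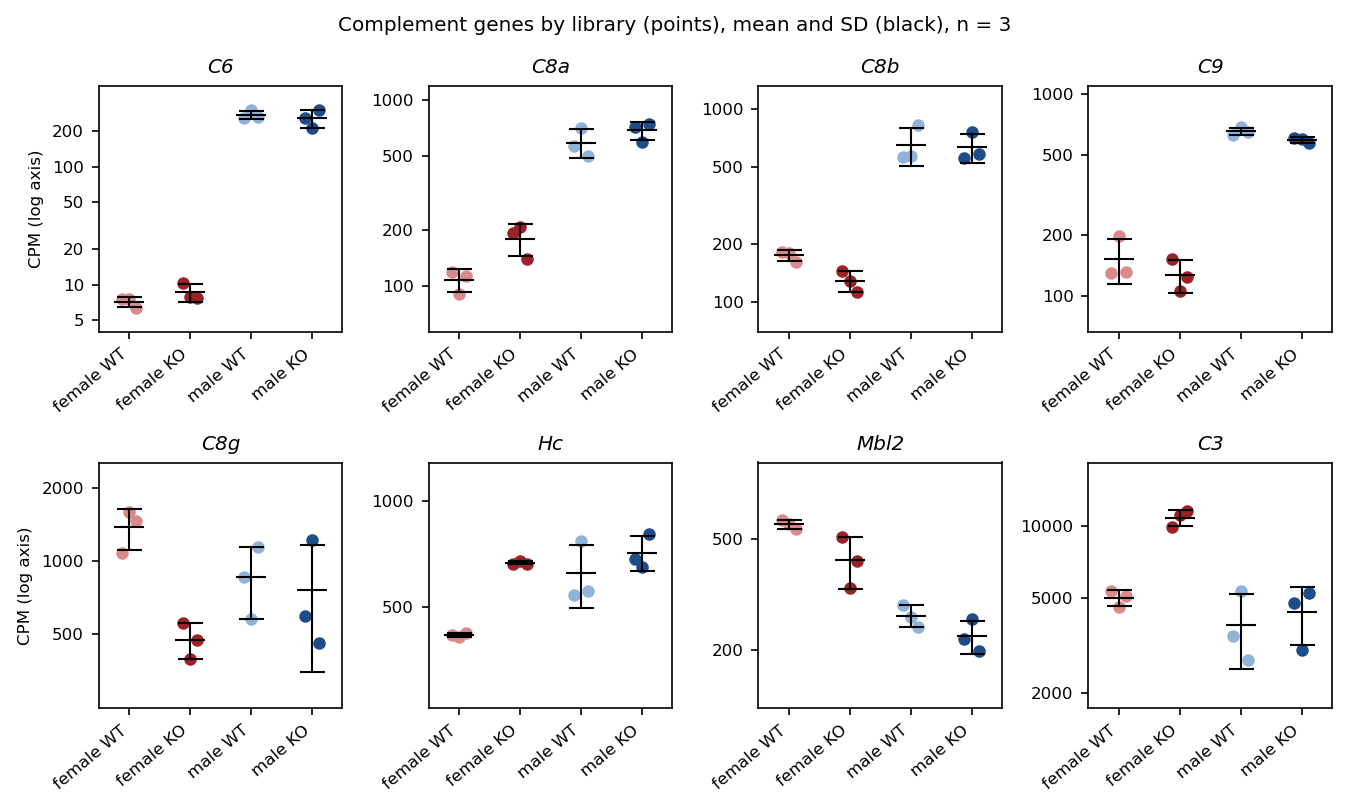
Level of 8 complement genes in each library, in CPM on a log axis that differs between panels. Each point is 1 library, and the black bars give the mean and SD of the 3 libraries of a group. C6, C8a, C8b and C9 show no overlap between the sexes, C8g overlaps between the sexes in both genotypes and Hc in knockout mice, Mbl2 is lower in males, and C3 is highest in knockout females at 9890.0, 11149.9 and 11535 CPM.

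The other genes of the membrane attack complex came from a list of further complement genes and were not members. C8g encodes the gamma chain of C8 and had 1375 ± 265 CPM in wild type females and 859 ± 281 in wild type males. Its sex difference was -0.68 ± 0.34, adjusted p = 0.258 in wild type and 0.68 ± 0.34, adjusted p = 0.253 in knockout mice, so it passed the test in neither genotype, unlike C8a and C8b. Whether C8g differs from C8a and C8b in its sex difference was not tested. Hc, which encodes C5, had 416 ± 5.37 and 623 ± 127 CPM in wild type females and males (0.58 ± 0.17, adjusted p = 0.0808). C7 was low throughout, with group means of 0.402 to 0.692 CPM. Of the 32 further complement genes tested, 1 was called in each genotype, where 4.49% and 5.4% of all genes were, and it was C4a in both. C4a, called Slp for sex-limited protein in older work, had 15.4 ± 4.32 CPM in wild type females and 46.1 ± 7.23 in wild type males (1.58 ± 0.32, adjusted p = 0.0099), and 11.4 ± 2.88 and 91.1 ± 40.1 in knockout mice (2.99 ± 0.33, adjusted p = 8.73e-05). It is a near-identical copy of the member C4b, so the split of reads between both genes is uncertain.

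The 250 bases upstream of the annotated start are shown for the 4 genes that were higher in males and for Mbl2, which was lower, so that the genes that moved together can be set side by side. They come from RefSeq on build GRCm38.p6, which is the C57BL/6J reference and not a 129 sequence, and run 5′ to 3′ on the gene's strand. Capitals mark matches to the motifs named after them. The windows are chr15:4726960-4727209 (plus strand), chr4:104876399-104876648 (minus strand), chr4:104766067-104766316 (plus), chr15:6445096-6445345 (plus) and chr19:30232678-30232927 (plus).
C6: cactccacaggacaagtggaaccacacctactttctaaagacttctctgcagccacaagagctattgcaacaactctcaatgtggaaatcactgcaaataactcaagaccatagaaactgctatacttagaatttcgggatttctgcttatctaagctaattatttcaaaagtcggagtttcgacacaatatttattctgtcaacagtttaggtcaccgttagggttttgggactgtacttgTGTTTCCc
C8a: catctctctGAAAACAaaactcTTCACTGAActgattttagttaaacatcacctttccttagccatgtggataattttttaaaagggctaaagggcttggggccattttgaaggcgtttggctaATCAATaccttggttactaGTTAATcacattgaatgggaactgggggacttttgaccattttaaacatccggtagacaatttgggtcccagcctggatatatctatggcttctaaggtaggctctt
C8b: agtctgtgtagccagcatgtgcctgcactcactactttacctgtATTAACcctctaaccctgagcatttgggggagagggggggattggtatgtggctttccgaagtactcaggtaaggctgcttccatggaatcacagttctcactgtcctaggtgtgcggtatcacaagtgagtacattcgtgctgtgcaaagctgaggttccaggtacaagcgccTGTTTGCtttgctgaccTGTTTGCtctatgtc
C9: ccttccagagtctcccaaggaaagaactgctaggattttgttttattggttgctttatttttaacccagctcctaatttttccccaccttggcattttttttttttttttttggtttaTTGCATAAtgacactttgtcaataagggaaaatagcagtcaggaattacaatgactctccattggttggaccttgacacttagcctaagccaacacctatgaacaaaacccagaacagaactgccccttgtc
Mbl2: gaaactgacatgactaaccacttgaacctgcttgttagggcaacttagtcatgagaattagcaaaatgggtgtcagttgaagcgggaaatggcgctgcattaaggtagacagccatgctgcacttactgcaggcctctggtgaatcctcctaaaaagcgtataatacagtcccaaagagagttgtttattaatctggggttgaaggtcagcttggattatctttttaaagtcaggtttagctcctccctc
The motifs searched on both strands were TTCNNNGAA for STAT factors, GTTAAT for an arm of the HNF1 site, CAAAGTCCA for HNF4, TTGCNNAA for C/EBP, ATTGAT for HNF6 and TGTTTNC for FOXA. A TGTTTNC match stood in the windows of C6, C8a and C8b, where 17.8% of the 32851 promoter windows of all genes held one. GTTAAT was found in C8a and C8b (6.43% of all windows), TTCNNNGAA in C8a alone among the 5 (7.02%), and ATTGAT in C8a alone (6.72%). C9 held 1 match, to TTGCNNAA (9.56% of all windows), and Mbl2 held none of the 6. No motif was common to the 4 genes. CAAAGTCCA was in 0.38% of all windows and in 0 of the 26 members that had an entry. Over those 26 members the shares with a match were 23.1% for TTCNNNGAA, 19.2% for GTTAAT, 30.8% for TTGCNNAA, 19.2% for ATTGAT and 34.6% for TGTTTNC. A match is a stretch of letters and not a measured site.

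Mbl2 (ENSMUSG00000024863, chromosome 19, 30210342 to 30217087) encodes mannose-binding lectin C, which starts the lectin route of complement. It had 586, 564 and 544 CPM in wild type females against 289.9, 263 and 242 in wild type males, and 507, 332 and 416 in knockout females against 219, 258 and 198 in knockout males. Every male library was below every female library. The log2 fold change was -1.09 ± 0.18, adjusted p = 0.00294 in wild type and -0.90 ± 0.18, adjusted p = 0.0106 in knockout mice. The knockout call was lost without male knockout replicate 1 (-0.87, adjusted p = 0.0529) and with only the 6 knockout libraries in the fit (-0.89, adjusted p = 0.0664). Mbl1, which encodes the other mannose-binding lectin, did not pass in either genotype (-0.45, adjusted p = 0.368, and 0.39, adjusted p = 0.446).

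C3 (ENSMUSG00000024164, chromosome 17, 57510970 to 57535136), on which all routes of complement converge, had 5374, 4581 and 5102 CPM in wild type females and 3479.6, 5349.6 and 2763 in wild type males, with overlapping ranges (-0.38 ± 0.25, adjusted p = 0.379). In knockout mice it had 9890.0, 11149.9 and 11535 CPM in females and 4773, 3027 and 5274 in males, with no overlap (-1.32 ± 0.26, adjusted p = 0.0083). The sex difference of C3 was not shown to differ between the genotypes (-0.94 ± 0.36, adjusted p = 0.204). C4b, Cfb, Cfi, Masp1 and Masp2 were not called in either genotype. Cfi, the protease that inactivates C3b and C4b, had 745, 888 and 865 CPM in wild type females and 572, 496 and 651 in wild type males, which did not overlap (-0.54 ± 0.19, adjusted p = 0.129).

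No clotting or anticoagulant gene passed the edgeR test between the sexes in the main fit, and those nearest to it are given here. DESeq2 called 8 members in wild type mice, 5 higher and 3 lower in males, where it called 1226 of all 14003 genes. The role groups of those calls are not given here. F11, which encodes factor XI, had 76.4, 76.4 and 85.0 CPM in wild type females and 113, 119.7 and 122 in wild type males (0.58 ± 0.15, adjusted p = 0.0515), just short of the threshold, and the ranges did not overlap. In knockout mice it had 118, 115 and 121 and 151, 112 and 127 CPM (0.14, adjusted p = 0.6). Kng1, the precursor of bradykinin and cofactor of contact activation, had 3237, 3089.9 and 3390.1 CPM in wild type females and 2367, 2329 and 2200.0 in wild type males, again without overlap (-0.49 ± 0.16, adjusted p = 0.101). F7, the protease that starts clotting with tissue factor, had 203, 167 and 186 CPM in knockout females against 136, 107 and 135 in knockout males (-0.56 ± 0.16, adjusted p = 0.0716). Antithrombin, Serpinc1, had 4132, 3857 and 3719 CPM in wild type females and 2933, 2690.0 and 3052 in wild type males (-0.43 ± 0.16, adjusted p = 0.137). Hrg, next among the anticoagulants and fibrinolysis genes in wild type mice, had 707, 682 and 724 CPM in females and 918, 1186 and 591 in males, which overlapped (0.35 ± 0.23, adjusted p = 0.367). In knockout mice Serpinf2, the plasmin inhibitor, had 1736, 1127 and 1275 CPM in females and 1069.7, 747 and 957 in males (-0.58 ± 0.20, adjusted p = 0.114). Plg had 2429, 2397 and 2552 and 2073, 1252 and 2060.4 CPM (-0.45 ± 0.25, adjusted p = 0.296), and Kng1 3091, 2339.6 and 2665 and 2227, 2327 and 2073 (-0.29 ± 0.16, adjusted p = 0.292). In these 3 genes every male knockout library was below every female one, and none passed. Over the 33 members, 6 were higher in every wild type male library than in every wild type female library and 9 were lower, where 13.4% and 13.5% of all genes were. In knockout mice the counts were 5 and 7, against 14% and 14.2% of all genes.

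Among 24 further coagulation genes tested, 2 were lower in males in each genotype. Of all genes 2.39% were lower in wild type and 2.45% in knockout males. Gas6, a vitamin K-dependent ligand related to protein S, was called in both (-1.18 ± 0.21, adjusted p = 0.00437 in wild type, and -1.35 ± 0.21, adjusted p = 0.00167 in knockout mice). Kng2, a near copy of Kng1, was called in wild type mice (-0.58 ± 0.15, adjusted p = 0.0495), and Hgfac, a serine protease related to factor XII, in knockout mice (-0.80 ± 0.17, adjusted p = 0.0151). Of 18 liver transcription factors 1 was higher and 1 lower in wild type males, where 4.49% of all genes were called. In knockout males 1 was higher and 2 were lower, where 5.4% of all genes were called, and only Cux2 of these is named here. Cux2, a repressor known for its female-biased liver expression, fell from 27.9 ± 13.1 CPM in wild type females to 0.106 ± 0.112 in males. Bcl6, a male-biased repressor, rose from 3.81 ± 1.49 to 17.5 ± 3.39 (2.21 ± 0.41, adjusted p = 0.0061). In knockout mice Bcl6 did not pass and lay the other way, at 19.5, 11.4 and 5.02 CPM in females and 4.97, 5.07 and 5.31 in males (-1.22 ± 0.40, adjusted p = 0.0989), and Cux2 was again lower in males (-8.48 ± 0.52, adjusted p = 2.51e-07).

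**Figure D2:**
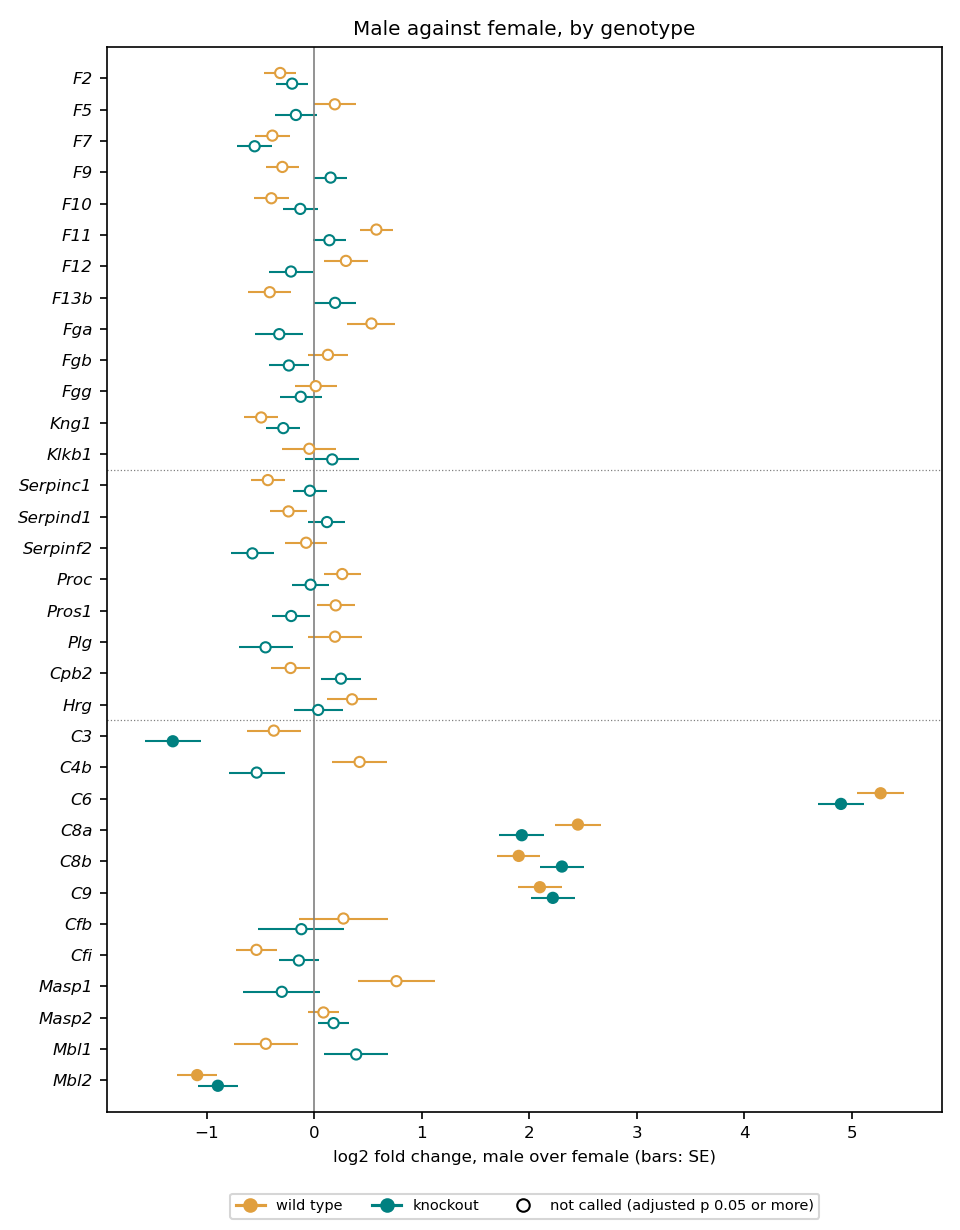
Log2 fold change, male over female, of the 33 members in wild type and knockout mice, with standard errors as bars and filled points for genes called at an adjusted p under 0.05. Dotted lines part clotting factors, anticoagulants and fibrinolysis, and complement. C6, C8a, C8b and C9 lie at 1.90 to 5.27, and all clotting factors lie between -0.56 and 0.58.

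Between female knockout and wild type livers the members moved both ways. The complement genes C3, C4b, C8a and Masp1, the clotting genes Fga and F11, and the fibrinolysis genes Plg and Serpinf2 rose in knockout females, by 1.47- to 2.57-fold. F9, F13b, Serpinc1 and Mbl1 fell, by 1.40- to 1.95-fold. These 12 of 33 members are 36.4%, where 36.5% of all 14003 genes were called, so the count was near the background. By direction, 17.7% of all genes rose and 18.8% fell. The median of the 33 members was 0.18 and that of all genes 0.049. All 12 calls ended without female wild type replicate 2 and without female knockout replicate 2 (0 of 33 in each case, with 13 and 14 members at an unadjusted p under 0.05), where 5 and 4 of all genes were called. Over all 12 libraries 19 members had such a p, as did 48.5% of all genes. The count of calls was 6 without female wild type replicate 3 and 6 without female knockout replicate 3. In those fits 2927 of all 14423 and 2909 of all 14346 genes were called. The female groups also differed in how a gene's level moved with its length. With that trend removed from each library 12 members rose and 1 fell, against 8 and 4 without the step. In that fit 2227 of all 14003 genes rose and 2033 fell.

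Among complement genes 4 of 12 rose and 1 fell, with a median of 0.09. C3 went from 5374, 4581 and 5102 CPM in wild type females to 9890.0, 11149.9 and 11535 in knockout females (1.11 ± 0.26, adjusted p = 0.0142). C4b, the component cleaved by the classical and lectin routes, went from 762, 696 and 815 to 1857, 1489 and 1448 CPM (1.08 ± 0.26, adjusted p = 0.0145). Masp1, a protease of the lectin route, went from 93.6, 62.2 and 66.3 to 153, 209 and 209 CPM (1.36 ± 0.36, adjusted p = 0.0165). In these 3 genes no knockout library overlapped a wild type library. Masp1 overlaps Rtp4 and the lncRNA Gm45338 on the other strand (1932 and 1398 counts in all libraries), and the counting's strand setting, not given in the sources used here, decides how their reads were split. C8a rose from 119, 90.2 and 113 to 192, 207 and 139.8 CPM (0.74 ± 0.20, adjusted p = 0.0175), while its neighbour C8b went from 174 ± 11.6 to 129 ± 16.2 CPM (-0.44 ± 0.20, adjusted p = 0.0902) and did not pass. Mbl1 (mannose-binding lectin A) fell from 219.7, 334 and 261 to 166, 114 and 139 CPM (-0.96 ± 0.30, adjusted p = 0.026). C3 alone held most of the complement total, which was 8098 ± 326 CPM in wild type and 14368 ± 506 in knockout females.

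The complement genes that were not called in females had these levels. C6 had 7.17 ± 0.693 and 8.63 ± 1.43 CPM in wild type and knockout females (0.27, adjusted p = 0.278), without overlap, and C9 152 ± 38.4 and 127 ± 23.3 (-0.26, adjusted p = 0.295). Cfi went from 833 ± 76.6 to 589 ± 68.7 CPM, just short of the threshold (-0.50, adjusted p = 0.0522), and its groups did not overlap. Mbl2 went from 565 ± 21.0 to 419 ± 87.4 CPM (-0.43, adjusted p = 0.0769), also without overlap. Masp2, the protease that cleaves C4 and C2 in the lectin route, had 134 ± 5.73, 127 ± 8.47, 142 ± 5.45 and 144 ± 8.57 CPM in wild type and knockout females and wild type and knockout males. Cfb, the protease of the alternative route, had 2.61 ± 1.44, 3.90 ± 1.58, 3.12 ± 1.03 and 3.58 ± 0.802 CPM in the same groups, from few reads.

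Of the 13 clotting factors 2 rose and 2 fell in knockout females, with a median of -0.022. F11, the zymogen of factor XIa in the intrinsic route, rose from 76.4, 76.4 and 85.0 to 118, 115 and 121 CPM (0.57 ± 0.15, adjusted p = 0.0166). F9, which encodes factor IX and lies on chromosome X, fell from 227, 255 and 195 to 168, 142 and 158 CPM (-0.53 ± 0.16, adjusted p = 0.0215). F13b, the carrier subunit of the fibrin cross-linking factor XIII, fell from 279, 362 and 320.0 to 188, 181 and 213 CPM (-0.72 ± 0.20, adjusted p = 0.0179). In all 3 genes the groups were apart.

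The fibrinogen chains Fgg, Fga and Fgb lie side by side on chromosome 3, from 82915031 to 82957170, and encode the subunits of 1 secreted protein. Fga rose from 2018, 1821 and 1597 to 3289, 2700.1 and 3023 CPM (0.73 ± 0.22, adjusted p = 0.0251). Fgb had 2463, 2518 and 2671 CPM in wild type and 3782, 2584 and 2827 in knockout females (0.26 ± 0.19, adjusted p = 0.276). Fgg had 2441, 2710.3 and 2289 and 3153, 1944 and 2232 CPM (-0.02 ± 0.19, adjusted p = 0.938). Both overlapped between the groups and did not pass, and whether the chains differ from each other was not tested. In each of these 3 chains knockout replicate 1 was the highest of the 3 knockout females. That library also stood apart in acute phase genes, here chosen after their values were seen. Saa1 had 114 CPM in it against 12.2 and 13.1 in the other knockout females, Hp 3451 against 1838 and 1998, and Fgl1 1027 against 285 and 421. Crp (214 against 240 and 228) and Saa4 (182 against 264 and 241) were lowest in it. The cause was not tested.

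The other clotting factors were not called in females. Their mean levels, given for wild type and knockout females and then wild type and knockout males, ran as follows. F2, the precursor of thrombin, had 2732 ± 130.2, 2499.8 ± 227, 2192 ± 101 and 2166 ± 111 CPM. F10, the protease that cleaves prothrombin, had 932 ± 73.0, 735 ± 102, 706 ± 13.02 and 671 ± 78.6 CPM, and its female groups did not overlap. Its cofactor F5 had 299.9 ± 21.6, 417 ± 96.9, 342 ± 45.5 and 370.1 ± 46.1 CPM. F7, 1498 bases from F10 on chromosome 8, had 164 ± 6.64, 185 ± 17.8, 125 ± 16.1 and 126 ± 16.2 CPM. The contact system comprises F12, prekallikrein (Klkb1) and kininogen (Kng1). F12 had 365 ± 42.4, 527 ± 43.6, 448 ± 106 and 453 ± 84.1 CPM, with female groups apart and an adjusted p of 0.0591. Klkb1, which lies 4657 bases from F11, had 321 ± 50.1, 249.7 ± 54.1, 310.3 ± 95.6 and 280.3 ± 70.6 CPM. Kng1 had 3239 ± 150.1, 2699 ± 377, 2299 ± 87.5 and 2209 ± 128 CPM. Between wild type and knockout males the ranges of these 7 genes overlapped.

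Of the 8 anticoagulants and fibrinolysis genes 2 rose and 1 fell in knockout females, with a median of 0.31. Plg, the precursor of the clot-dissolving protease plasmin, rose from 1504, 1447 and 1148 to 2429, 2397 and 2552 CPM (0.85 ± 0.25, adjusted p = 0.0227). Serpinf2, the inhibitor of plasmin, rose from 959, 969 and 887 to 1736, 1127 and 1275 CPM (0.56 ± 0.20, adjusted p = 0.0421). Serpinc1, the main inhibitor of thrombin and factor Xa, fell from 4132, 3857 and 3719 to 2887, 2625 and 2877 CPM (-0.48 ± 0.16, adjusted p = 0.0303). The protease and its inhibitor were thus both higher, and in all 3 genes the groups were apart. The Serpinf2 call was the least firm of the 12, since it was lost on dropping any of 8 of the 12 libraries.

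The 5 anticoagulants and fibrinolysis genes that were not called had these group means, in the same order of females and then males, wild type first. Heparin cofactor II, Serpind1, had 782 ± 55.6, 605 ± 30.7, 662 ± 104 and 656 ± 95.4 CPM. Protein C, Proc, had 528 ± 66.4, 646 ± 73.9, 632 ± 71.4 and 630.1 ± 60.4 CPM, and its cofactor protein S, Pros1, had 36.7 ± 5.63, 45.8 ± 2.54, 42.1 ± 5.28 and 39.4 ± 5.75 CPM. These are the vitamin K-dependent brake on factors V and VIII. Cpb2, a carboxypeptidase that slows fibrinolysis, had 352 ± 13.5, 258 ± 38.8, 302 ± 15.3 and 306 ± 65.9 CPM. Hrg, which binds plasminogen and heparin, had 704 ± 20.9, 1040.1 ± 65.6, 899 ± 298 and 1066 ± 199 CPM. Female groups did not overlap in any of these 5 genes. Over the 33 members the female groups were apart in 13 that were higher and 10 that were lower in the knockout, where 27.6% and 27.1% of all genes were.

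**Figure D3:**
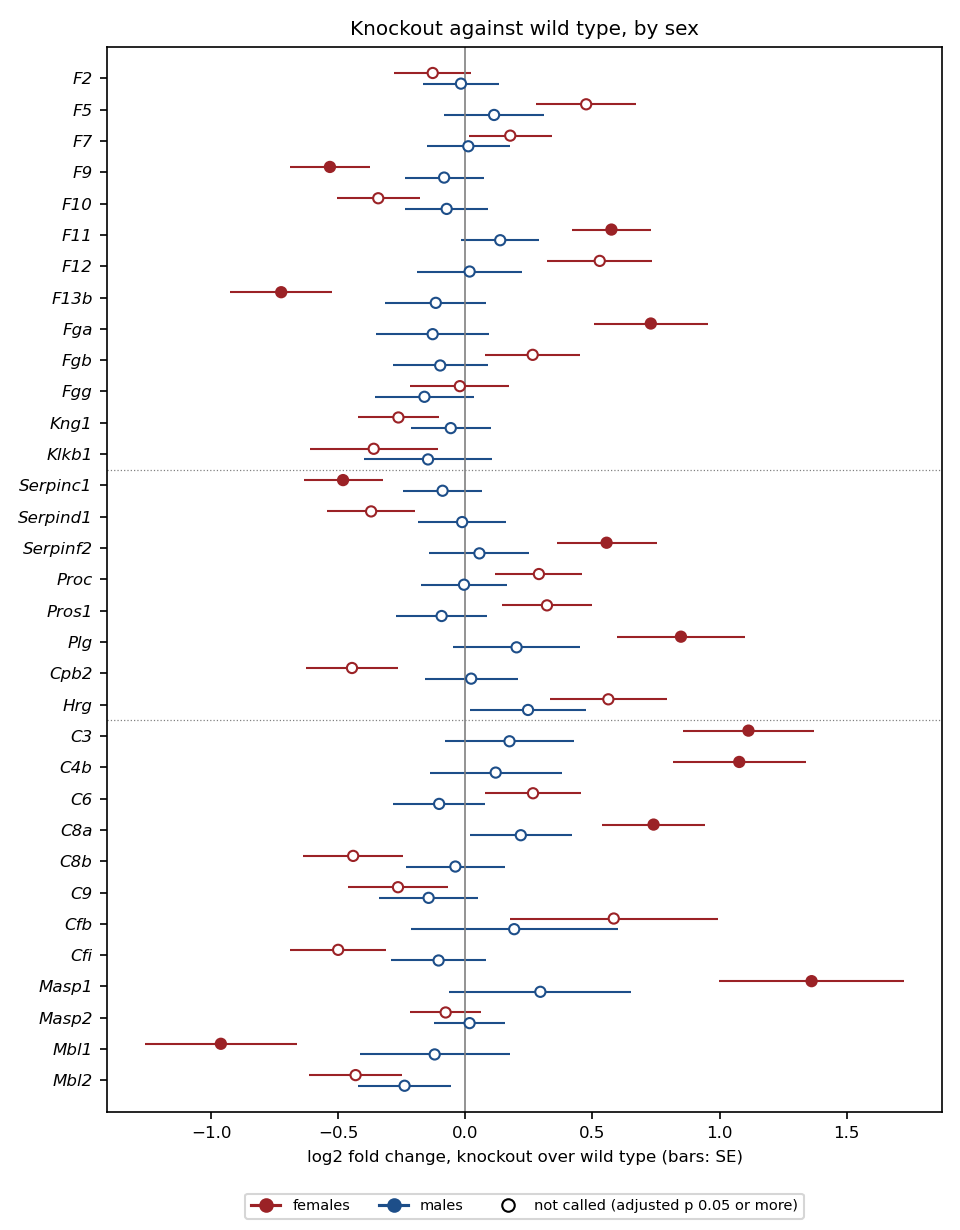
Log2 fold change, knockout over wild type, of the 33 members in females and in males, with standard errors as bars and filled points for genes called at an adjusted p under 0.05. In females the values run from -0.96 (Mbl1) to 1.36 (Masp1) with 12 called, and in males from -0.24 (Mbl2) to 0.29 (Masp1) with none called.

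In males 0 of 33 members were called between knockout and wild type by edgeR, where 0.0571% of all genes were. At an unadjusted p under 0.05 the count was also 0, against 4.84% of all genes, and DESeq2 called 0. The male groups were apart in 1 member, C9, which was lower in the knockout (-0.14 ± 0.19, adjusted p = 1), where 4.52% of all genes were apart and lower and 5.1% apart and higher. The values ran from -0.24 to 0.29, with a median of -0.017. Mbl2 had the smallest unadjusted p among complement genes (-0.24 ± 0.18, unadjusted p = 0.211), at 289.9, 263 and 242 CPM in wild type and 219, 258 and 198 in knockout males. C8a was next (0.22 ± 0.20). F11 (0.14 ± 0.15) and Fgg (-0.16 ± 0.19) were those of clotting factors, and Hrg (0.25 ± 0.23) and Plg (0.20 ± 0.25) those of the anticoagulants and fibrinolysis genes. Fgg had 2648, 2232 and 2626 CPM in wild type and 2409.9, 2272 and 2032 in knockout males, and Hrg had 918, 1186 and 591 and 1129.7, 844 and 1225. Both overlapped between the groups. The largest standard error in males was that of Cfb, 0.41, and differences of that size could not be told from 0 here.

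The male libraries of 1 genotype spread widely in several members, in a pattern that wild type and knockout shared. Plg had 1583, 2046 and 1055 CPM in wild type males and 2073, 1252 and 2060.4 in knockout males. Masp1 had 112, 186 and 79.2 and 178, 76.4 and 209 CPM. Wild type replicate 2 and knockout replicates 1 and 3 were the high libraries in both genes, and wild type replicate 3 and knockout replicate 2 the low ones. Mbl1 ran the other way, with 182, 139 and 275 CPM in wild type and 164, 258 and 127 in knockout males.

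These libraries also differed in their length slope, the slope on log2 gene length of a library's log2 levels, each set against the gene's mean over the 12 libraries. The slope was -0.03, 0.11 and -0.16 log2 units per doubling of length in wild type males, and 0.08, -0.17 and 0.17 in knockout males. The order of the 6 male libraries by slope was the same as their order by Masp1. In females the slope was -0.19 ± 0.04 (SD, n = 3) in wild type and 0.19 ± 0.10 in knockout libraries, without overlap. Listed gene lengths had a median of 3673.5 bases over the 8 members that rose in knockout females, 2633 over the 4 that fell and 2556 over the 21 not called. With the slope as a covariate of the model 0 of 33 members were called in females, where 10 of all genes were. Masp1 (-0.21) and Mbl1 (0.26) then changed sign, C3 stood at 0.17 (adjusted p = 0.865) and Serpinf2 at 0.54 (adjusted p = 0.575). With the length trend of each library removed instead, the 13 calls included C3 (0.96, adjusted p = 0.0158) and Serpinc1 (-0.86, adjusted p = 0.0159), and the calls of F9, F13b and Mbl1 ended. The length slope and the genotype of the female libraries moved together, and the part of the slope in the female results was not tested beyond these fits.

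**Figure D4:**
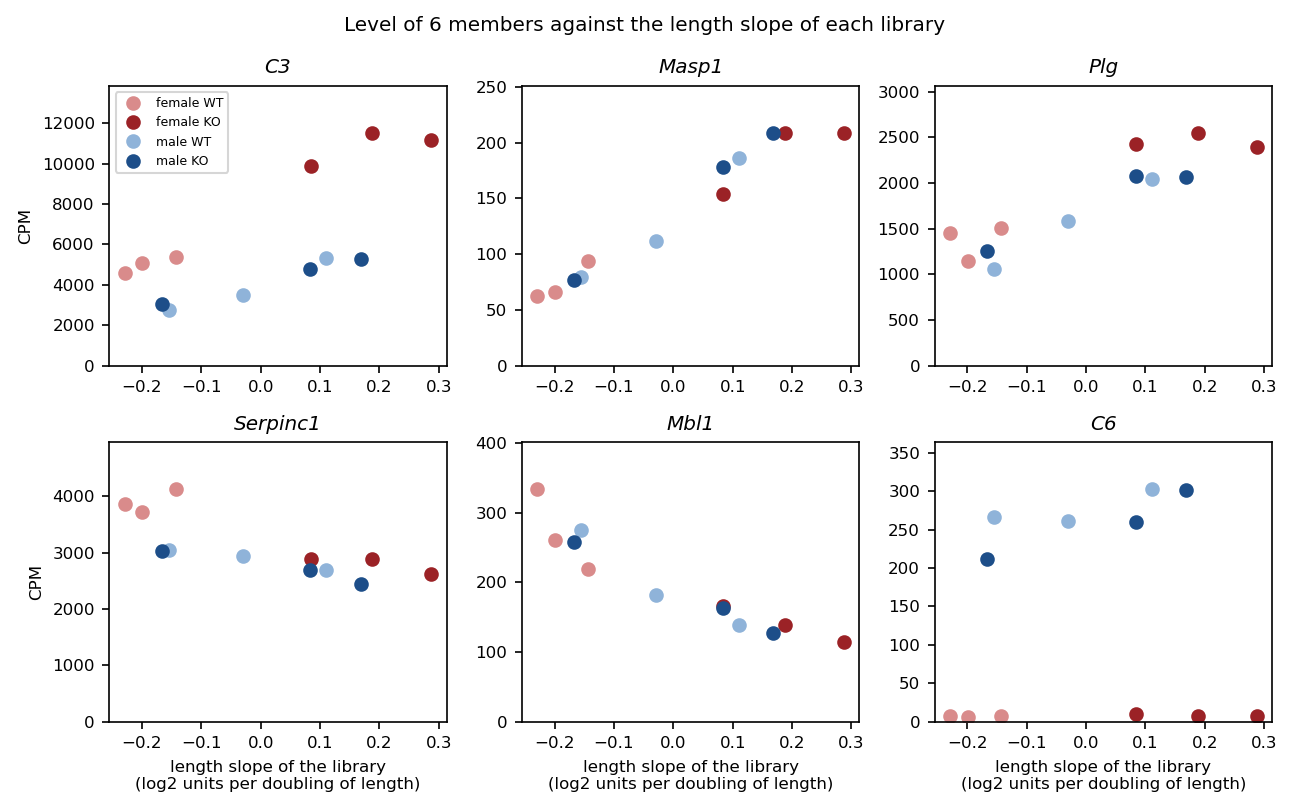
Level of 6 members in CPM (axes from 0) against the length slope of each of the 12 libraries, coloured by group. Within each sex, apart from small exchanges, Masp1, Plg and C3 are higher and Mbl1 and Serpinc1 lower in libraries of higher slope. C6 parts by sex at every slope. At a slope of 0.08 C3 had 9890 CPM in female knockout replicate 1 and 4773 in male knockout replicate 1.

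**Figure D5:**
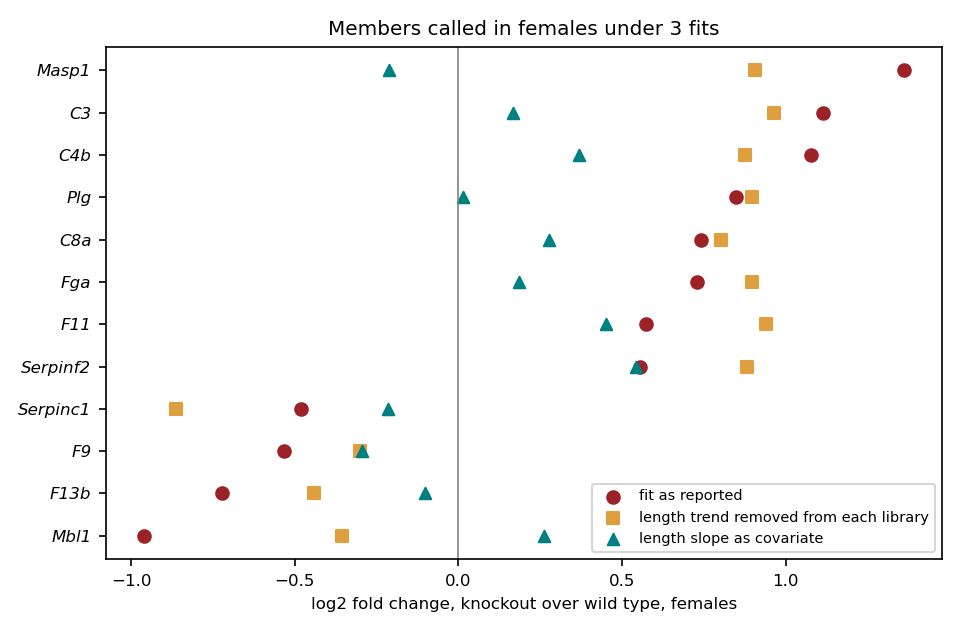
Log2 fold change, knockout over wild type, in females for the 12 called members under the fit as reported (circles), with each library's length trend removed (squares) and with the length slope as a covariate (triangles). Masp1 goes from 1.36 to -0.21 and Serpinf2 from 0.56 to 0.54 with the slope as a covariate.

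As the mean over both sexes, 5 members were higher in the knockout. They were C3 (0.64 ± 0.18, adjusted p = 0.0394), C4b (0.60 ± 0.18, adjusted p = 0.0469), C8a (0.48 ± 0.14, adjusted p = 0.0437), Masp1 (0.83 ± 0.25, adjusted p = 0.0468) and F11 (0.36 ± 0.11, adjusted p = 0.0462) in complement and clotting, or 5 of 33 where 15.1% of all genes were called, 7.78% higher and 7.29% lower. All 5 are also called in females, whose libraries enter both comparisons. None of the 5 calls held on dropping any 1 of 10 of the 12 libraries, while without male knockout replicate 2 the count was 15, where 5594 of all 14439 genes were called, and without male wild type replicate 2 it was 9, where 4510 of all 14456 were. Plg came closest among the anticoagulants and fibrinolysis genes (0.52 ± 0.18, adjusted p = 0.0567). With a replicate block, which adds the replicate number of the titles to the model, 0 members and 23 of all 14003 genes were called in this mean.

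The knockout effect was not shown to differ between the sexes for any member, with 0 of 33 and 0 of 14003 genes called by edgeR (0%). Of the members 4 had an unadjusted p under 0.05, against 22.5% of all genes, and DESeq2 called 0 of them. Fga (-0.86 ± 0.32, adjusted p = 0.204), C3 (-0.94 ± 0.36, adjusted p = 0.204) and C4b (-0.96 ± 0.37, adjusted p = 0.204) had the smallest p-values, each with the male effect below the female effect. For Plg the difference was -0.65 ± 0.35, adjusted p = 0.275, and for Cpb2 0.47 ± 0.26, adjusted p = 0.277. Cpb2 had 344, 367 and 343 CPM in wild type and 285, 214 and 276 in knockout females, which were apart, and 319, 291 and 295 and 293, 378 and 249 in the matching males, which overlapped. For F13b, the carrier subunit of factor XIII, the difference was 0.61 ± 0.28, adjusted p = 0.222, with 240.3, 195 and 285 CPM in wild type and 221, 268 and 176 in knockout males. Fga had 2977, 2953 and 1925 and 2775, 1750.3 and 2661 CPM in those males, and C4b 801, 1434 and 808 and 1118, 776 and 1411. In none of these genes were the male groups apart. A call in females and none in males is therefore not shown to be a difference between the sexes.

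Other genes of these pathways moved both ways in knockout females too. Of 24 further coagulation genes 2 rose and 4 fell, with a median of -0.11, where 17.7% of all genes rose and 18.8% fell. Tfpi2, a protease inhibitor of the tissue factor pathway inhibitor family, fell from 99.7 ± 16.2 to 33.9 ± 3.37 CPM (-1.56 ± 0.32, adjusted p = 0.0139). Serpina10, which inhibits factor Xa with protein Z, fell from 515 ± 92.0 to 254 ± 52.7 CPM (-1.02 ± 0.28, adjusted p = 0.0169). Mcfd2, a cargo receptor subunit for factors V and VIII, fell (-0.83 ± 0.26, adjusted p = 0.0256), while Ggcx, the enzyme that carboxylates the vitamin K-dependent factors, rose (0.62 ± 0.21, adjusted p = 0.0348).

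Of 32 further complement genes 3 rose and 8 fell in knockout females, with a median of 0.07, against 17.7% and 18.8% of all genes. C8g fell from 1077, 1585 and 1462 to 554, 396 and 473 CPM (-1.53 ± 0.34, adjusted p = 0.014), while C8a, the alpha chain gene, was called higher. With the length slope as a covariate C8a stood at 0.28 and was not called (adjusted p = 0.756, edgeR). C8g also moved with the slope, and within each sex it was lower in each library of higher slope. In males it had 860, 578 and 1140 CPM in wild type and 594, 1221 and 458 in knockout libraries. The part of the slope in the C8g call was not tested. Whether C8a and C8g differ in their knockout effect was not tested. Cfhr2, a factor H-related gene of a family with near-identical copies, fell (-1.54 ± 0.38, adjusted p = 0.0145), as did C4bp, an inhibitor of C4b (-0.91 ± 0.23, adjusted p = 0.015). Cpn2, a subunit of the carboxypeptidase that inactivates anaphylatoxins, rose from 214 ± 17.2 to 456 ± 31.4 CPM (1.09 ± 0.27, adjusted p = 0.0147), and Hc (C5) rose from 416, 411 and 422 to 665, 677 and 663 (0.68 ± 0.17, adjusted p = 0.0149). In males 0 of 24 and 0 of 32 were called by edgeR, and 0 and 1 had an unadjusted p under 0.05.

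Regulators and other acute phase genes were read beside the members. Of 18 liver transcription factors 9 rose and 1 fell in knockout females (median 0.89). Cebpd, an acute phase regulator, fell (-1.37 ± 0.23, adjusted p = 0.0132), and Prox1 (1.28 ± 0.24, adjusted p = 0.0135) and Stat5b (1.08 ± 0.22, adjusted p = 0.0139) rose. Hnf4a, which drives many clotting genes, went from 243 ± 65.1 to 416 ± 68.9 CPM and did not pass (0.77 ± 0.32, adjusted p = 0.07). It was chosen after its values were seen. Of 25 genes of the IL-6 response and the acute phase 7 rose and 3 fell (median 0.29), with Orm3 (-1.25) and Orm1 (-1.58) lower and Itih3 (0.74) and Itih4 (0.67) higher. The called shares were 55.6% of the transcription factors and 40% of the acute phase genes, where 36.5% of all genes were called. By direction, 17.7% of all genes rose and 18.8% fell. With the length slope as a covariate 10 of all 14003 genes were called in females. Without female wild type replicate 2 it was 5 of all 14416. The part of the slope in these lists was not tested.

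Markers of other liver cells were summed beside these results. The 12 Kupffer cell and macrophage markers summed to 243 to 335 CPM in wild type and 264 to 321 in knockout females, and the 12 sinusoidal endothelial markers to 271 to 362 and 338 to 453, both with overlap. By gene, 4 of the 12 Kupffer cell and macrophage markers and 3 of the 12 endothelial markers rose in knockout females and 0 of either fell, with median log2 fold changes of 0.45 and 0.49. Of all genes 17.7% rose and 18.8% fell in knockout females. The 12 stellate cell markers summed to 412 to 485 CPM in wild type and 509 to 582 in knockout females, and to 311 to 336 in wild type and 337 to 448 in knockout males. They were apart between the female groups and between the sexes, and the part of any of these cells in the results was not tested. Of the 12 stellate cell markers 3 rose and 2 fell in knockout females, and 0 rose and 2 fell in wild type males against females. In the latter comparison 2.1% of all genes were higher and 2.39% lower in males. The 8 cholangiocyte markers summed to 67.9 to 97.3 CPM in wild type females and 48.9 to 58.9 in wild type males. In knockout mice the sums overlapped, at 56.1 to 83.7 CPM in females and 55.2 to 57.0 in males. Of the 7 cholangiocyte markers tested 2 rose and 2 fell in knockout females. The 12 lymphocyte and neutrophil markers summed to no more than 39.8 CPM in any library, with Ly6g at 0 counts in all, and among platelet markers Gp1bb was at 0. Only 6 of these 12 lymphocyte and neutrophil markers were tested, of which 3 rose and 0 fell in knockout females (median 1.17).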

How the data were processed

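Liver RNA was sequenced in 12 libraries (4 groups of 3), and the 33 members were taken by gene symbol. The deposited table holds whole-number counts per gene, which the authors left without normalization. Per the submitters' processing notes, HISAT2 2.0.5, DESeq2 and build mm39 were used. The counting program, its annotation and its use of strand were not given in the sources used here. Each gene length is the value in bases that the table lists, per the file headers.

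Counts were tested with edgeR 4.0.16 (R 4.3.3) on all 12 libraries, with 1 mean per group, TMM scaling, the default filter on low counts and the quasi-likelihood test. This left 14003 genes, 99.9% of counts, 8 residual degrees of freedom and a biological coefficient of variation of 25.9%. In each of 6 comparisons the Benjamini-Hochberg adjustment was made over all 14003 genes, and genes with an adjusted p under 0.05 are called. Fold changes are on the log2 scale with their standard error after ±, and levels are CPM on the TMM-scaled library size with the SD of 3 libraries. P-values measure the spread between these libraries, which the labels call replicates without naming animals. Totals were 15167730 to 25082532 counts per library, and the lowest count of a member was 26, in Cfb.

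All 33 members are named with their levels, and values per comparison are given for every called member. Per library values are given in each comparison and role group for the 3 called members of smallest adjusted p, or the 2 of smallest unadjusted p where none was called, and for further members beside them. Of each further gene list at most 4 called genes per comparison were named. The symbols were listed with no threshold on measured values, but the members and all lists were chosen with earlier results of these data known.

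Alternatives were relative log expression size factors, DESeq2 1.42.0, no filter, a replicate block, the length slope as a covariate, removal of each library's length trend (lowess span 0.5), only the groups compared, and leaving out each library. The length slope was fitted over 9366 genes. The fitting steps were tested on simulated data. Promoter windows were matched by symbol for 26 of 33 members. Of the members, 13 are overlapped by another gene of the table, 7 of them (F5, Serpinc1, Serpind1, Plg, Cfi, Masp1, Masp2) by one with at least 100 counts in all libraries.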

Additional observations from a re-analysis of the deposited data

How the results depend on the processing

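The male-higher C6, C8a, C8b and C9 and the female-higher Mbl2 in wild type mice kept their call in all fits run. The male against female count was 5 to 6 in wild type and 5 to 6 in knockout mice when 1 library was left out, and DESeq2 called 8 in wild type mice (5 higher and 3 lower in males), where it called 1226 of all 14003 genes. In knockout females the count of 12 was 0 with the length slope as a covariate and ran from 0 to 16 when 1 library was left out. That slope fit called 10 of all 14003 genes. The fit with 16, which left out male knockout replicate 2, called 5993 of all 14439. For the mean of both sexes the count of 5 was 0 with the slope as a covariate and 10 with DESeq2 (6 higher and 4 lower), and it ran from 0 to 15 when 1 library was left out. The slope fit called 21 of all 14003 genes in that mean, and DESeq2 3959 of all 14003 genes. The member count was 0 in every fit with a library left out, apart from those without male wild type replicate 2 or male knockout replicate 2. The count stayed at 0 to 0 in males and at 0 to 0 for the difference between the sexes when 1 library was left out. Without a filter on low counts, 1 member was called for that difference, Masp1 (-1.08, adjusted p = 0.0382), where 1451 of all 25594 genes were called. With the slope as a covariate the sign turned for Masp1 in females (-0.21) and in the mean (-0.089), and for Mbl1 in females (0.26). The cause of these shifts was not tested. Fits without 1 library leave 2 in its group, and the spread is pooled over all groups, as in the main fit.

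With the replicate number as a block, the member counts were 8 in females, 0 in males, 0 for the mean, 0 for the difference between the sexes, and 5 and 6 between the sexes in wild type and knockout mice. Of all 14003 genes, the block left 3365 called in females, 6 in males, 23 for the mean and 0 for the difference. Between the sexes it left 415 called in wild type and 507 in knockout mice. The replicate numbers share no stated animal, litter or day. Over 18 pairs of libraries with the same number the correlation of deviations from the group means ran from -0.61 to 0.28, it was over 0.1 in 3, and 0 of 12 libraries correlated best with their own number, so the numbers were not treated as pairs.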

Other observations

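Acute phase genes outside the clotting and complement members also differed between the sexes. Of 25 genes of the IL-6 response and the acute phase, 1 was higher and 3 were lower in wild type males, and 1 was higher and 6 were lower in knockout males, where 4.49% and 5.4% of all genes were called. Fgl1, a secreted relative of fibrinogen, had 610.4, 902 and 770.1 CPM in wild type females against 54.6, 101 and 85.1 in wild type males (-3.24 ± 0.42, adjusted p = 0.000345, edgeR), and it was also lower in knockout males (-2.44 ± 0.41, adjusted p = 0.00289). Apcs, which encodes serum amyloid P, was lower in wild type males (-1.62 ± 0.39, adjusted p = 0.0288), and Saa4, a constitutive serum amyloid A, was higher (1.10 ± 0.17, adjusted p = 0.00183). The female libraries were thus higher in Fgl1 and Apcs while C6, C8a, C8b and C9 were higher in males.

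As the mean over both sexes, Hc rose with the knockout (0.44 ± 0.12, adjusted p = 0.0388) and C8g fell (-0.86 ± 0.24, adjusted p = 0.0394), among 1 higher and 4 lower of 32 further complement genes. Among 24 further coagulation genes Vwf, the carrier of factor VIII made by endothelium, was higher (0.72 ± 0.22, adjusted p = 0.0476) and Tfpi2 lower (-0.83 ± 0.22, adjusted p = 0.0376). These shares stand beside 15.1% of all genes called in that mean. In males alone 0 of the 24 and 0 of the 32 genes were called by edgeR. With a replicate block 23 of all 14003 genes were called in the mean, and with the length slope as a covariate 21 were. A rise or fall in both sexes is therefore not shown for these genes.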
